A study of Mus musculus with 36 samples.

Results

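Polycomb repressive complex 2 (PRC2) is described here through the mRNAs of 10 of its subunits in mouse C2C12 myotubes. The members were chosen by gene name, and all 10 were among the 55416 genes counted and among the 13995 genes that passed the filter on low counts. The filter asked for at least 1 read per megaread of unscaled library total in at least 12 of 36 libraries. Levels below are given in reads per megaread of scaled library total (RPM). C2C12 is a mouse myoblast line, and the cells of every group were taken to day 4 of differentiation into myotubes. On day 3 the cells were transfected with an antisense LNA, either a negative control (control myotubes) or one against the long non-coding RNA *Tug1* (*Tug1* KD), and were used 24 h later. Each LNA was combined with 3 conditions: Rest, in which electrodes were in the medium but not connected, EPS 0h, which was the end of 3 h of electrical pulse stimulation (EPS), and EPS 3h, which was 3 h after that end. No Rest group is labelled with a recovery time, so EPS 3h had no resting group matched to its time of harvest. In EPS 3h against Rest, stimulation and elapsed time cannot be told apart. Each of the 6 groups held 6 libraries, 1 well per library, and the wells came from 2 independent experiments with a single cell line. The p-values therefore measure the spread between wells, and no label ties a replicate number to an experiment. The study compared *Tug1* KD with control and stimulated with resting myotubes, and the comparisons below read the subunit mRNAs in that design.

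PRC2 methylates lysine 27 of histone H3, a mark that goes with gene silencing. *Ezh2* and its paralog *Ezh1* encode the alternative methyltransferase subunits, *Ezh2* being typical of dividing cells and *Ezh1* of differentiated cells such as muscle fibres. *Suz12* and *Eed* encode the core subunits that the enzyme needs for activity, *Eed* also being the reader of the finished mark. *Rbbp4* and *Rbbp7* encode histone-binding subunits that are shared with deacetylase, remodelling and chromatin assembly complexes. The remaining members are accessory subunits: *Mtf2*, *Phf1* and *Phf19* encode Polycomb-like proteins of the PRC2.1 form, and *Jarid2* encodes a subunit of the PRC2.2 form.

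The start regions of 5 members are shown first, because these include genes that rose after EPS, a gene that fell and a gene that did neither. Each is the 250 bases just upstream of the start of the Ensembl canonical transcript, read from the GRCm39 genome in the direction of the gene. Lower case marks sequence without a searched motif, and capitals mark an E2F match (TTTCCCGC), a CCAAT box (CCAAT) or an E-box (CAGCTG) on either strand.
Ezh1: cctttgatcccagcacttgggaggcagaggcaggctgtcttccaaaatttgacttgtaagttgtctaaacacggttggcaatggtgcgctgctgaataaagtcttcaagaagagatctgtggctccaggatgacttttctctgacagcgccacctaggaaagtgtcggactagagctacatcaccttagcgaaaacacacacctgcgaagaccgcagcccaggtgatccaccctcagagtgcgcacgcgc
Suz12: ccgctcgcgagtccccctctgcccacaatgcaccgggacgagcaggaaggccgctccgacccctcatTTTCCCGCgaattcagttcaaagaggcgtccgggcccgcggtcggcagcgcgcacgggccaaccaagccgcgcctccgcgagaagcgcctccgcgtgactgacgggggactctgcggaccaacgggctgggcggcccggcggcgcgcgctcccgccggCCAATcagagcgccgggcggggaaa
Mtf2: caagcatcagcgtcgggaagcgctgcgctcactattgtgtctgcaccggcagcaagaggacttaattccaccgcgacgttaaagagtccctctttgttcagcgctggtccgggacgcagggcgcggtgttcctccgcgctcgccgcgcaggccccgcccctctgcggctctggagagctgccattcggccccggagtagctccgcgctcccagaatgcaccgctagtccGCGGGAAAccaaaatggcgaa
Phf19: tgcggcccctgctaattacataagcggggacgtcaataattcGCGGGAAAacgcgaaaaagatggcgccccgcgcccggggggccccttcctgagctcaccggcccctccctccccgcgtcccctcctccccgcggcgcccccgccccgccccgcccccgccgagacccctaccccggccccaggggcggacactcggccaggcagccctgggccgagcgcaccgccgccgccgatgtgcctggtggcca
Jarid2: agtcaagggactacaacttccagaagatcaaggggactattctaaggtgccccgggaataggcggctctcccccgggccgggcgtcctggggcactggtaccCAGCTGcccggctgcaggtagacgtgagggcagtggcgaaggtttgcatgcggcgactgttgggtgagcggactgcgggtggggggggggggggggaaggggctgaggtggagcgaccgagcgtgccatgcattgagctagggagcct
These windows lie at chr11:101117316-101117565 on the minus strand for *Ezh1*, at chr11:79883646-79883895 on the plus strand for *Suz12*, at chr5:108213358-108213607 on the plus strand for *Mtf2*, at chr2:34803989-34804238 on the minus strand for *Phf19* and at chr13:44884246-44884495 on the plus strand for *Jarid2*. The E2F letters stood in the windows of 3 of 10 members, *Suz12*, *Mtf2* and *Phf19*, and in 1.15% of 21627 windows of the same kind over protein-coding genes. These E2F letters include a C followed by a G. Such pairs numbered 38 in the *Suz12* window, 28 in that of *Mtf2* and 31 in that of *Phf19*, beside a median of 8 over all windows. Windows of like base composition were not compared. The CCAAT letters were in the windows of 4 members, *Suz12*, *Rbbp4*, *Rbbp7* and *Phf1*, and in 36.5% of all windows, and the E-box letters were in that of *Jarid2* and in 11.9% of all windows. The other motifs searched on both strands, CRE (TGACGTCA, 1.69% of windows), AP-1 (TGANTCA, 6.19%), ETS (CCGGAAG, 6.87%) and a second E2F form (TTTGGCGC, 0.49%), were in no member's window, and no matches overlapped in the members. GC content was 52.4% in the *Ezh1* window, 73.2% in that of *Suz12*, 64.4% in that of *Mtf2*, 75.2% in that of *Phf19* and 66.0% in that of *Jarid2*, beside a median of 53.2% over all windows. A match is a run of letters and was not tested as a binding site.

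Total counts per library ran from 17005079 to 24181167. Counts of single members ran from 59 (*Phf19*) to 6669 (*Rbbp4*), so each member was measured in every library. Of 100-base windows along the canonical transcripts, none was shared with another gene for 9 of 10 members, and 40 of 2198 (1.82%) were shared with Gm6382 for *Rbbp7*. The gene bodies of 8 members overlap a protein-coding gene on the opposite strand (*Cntnap1* for *Ezh1*, *Cul1* for *Ezh2*, *Crlf3* for *Suz12*, *Sync* for *Rbbp4*, *Txlng* for *Rbbp7*, *Dtnbp1* for *Jarid2*, *Tmed5* for *Mtf2* and *Cuta* for *Phf1*). The libraries were stranded, but the strand setting of the counting is not given in the sources used here, so reads of such neighbours could not be told apart with certainty. In bulk RNA, fewer cells of a type and less RNA per cell cannot be told apart.

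*Tug1* itself was checked before the members. At Rest it was 38.5 RPM (lowest), 47.7 (median) and 58.2 (highest) in control myotubes, and 23.9, 25.4 and 33.2 RPM in *Tug1* KD. The groups did not overlap, and the difference was a log2 fold change (log2FC) of -0.83 (SE 0.171; FDR 0.000915, edgeR quasi-likelihood test with Benjamini-Hochberg adjustment over all genes tested, as for every FDR below). At EPS 0h *Tug1* was -0.57 lower on the log2 scale (SE 0.169; FDR 0.0178), and at EPS 3h -0.51 (SE 0.168; FDR 0.0414), with overlapping ranges in both. *Tug1* rose with EPS in control myotubes, with a log2FC of 0.48 at EPS 0h (FDR 0.0223, passing in 8 of 11 alternative settings, and 0.40 with FDR 0.0593 under scaling to library size alone) and 0.75 at EPS 3h (FDR 3.3e-04).

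The cultures carried the mRNAs of differentiated muscle. All 11 myotube markers were detected in every group, led by the embryonic myosin gene *Myh3* (3030 to 5780 RPM over the 36 libraries) and *Acta1*, skeletal actin (2600 to 4780 RPM), and their summed level had medians of 14600 to 17100 RPM in the 6 groups. Markers of cycling cells (*Mki67*, *Top2a*, *Ccna2*, *Ccnb1*, *Cdk1*) summed to 124 to 161 RPM in resting control myotubes, 137 to 173 at EPS 0h and 110 to 163 at EPS 3h. *Pax7* and *Myf5*, markers of undifferentiated or reserve myoblasts, summed to 29.8 to 34.0 RPM at Rest in control myotubes, 49.3 to 62.1 at EPS 0h and 24.3 to 31.9 at EPS 3h. None of these 18 markers was at 0 in any group. By edgeR 0 of 11 myotube markers were called in the control EPS comparisons (unadjusted p under 0.05 for 2 at EPS 0h and 1 at EPS 3h, with 1 called lower by DESeq2 at EPS 0h and none by limma-voom). Over all genes edgeR called 20.5% higher and 18.4% lower at EPS 0h, and 26.1% higher and 25.9% lower at EPS 3h. Scaling to library size alone called 2 myotube markers lower at EPS 0h and 4 lower at EPS 3h, where 24.9% and 39.6% of all genes were lower. Upper quartile scaling called 1 lower at each time, and replicate number as a block 1 higher at EPS 0h. By edgeR without a block *Myf5* was higher at EPS 0h (log2FC 1.31, FDR 3.54e-06) and *Pax7* lower at EPS 3h (-0.62, FDR 3.39e-04). Of the 5 cycling markers 1 was higher and 1 lower at each time. The part of these cells in the member values was not tested.

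Levels of different genes are compared as reads per kilobase of canonical transcript, scaled as RPM (RPKM). In resting control myotubes the shared histone-binding subunits stood highest, *Rbbp7* at 68.0 ± 4.73 RPKM (SD, n = 6) and *Rbbp4* at 61.7 ± 3.81, with overlapping ranges. *Ezh1* was the most abundant PRC2-specific member at 24.2 ± 1.57 RPKM, followed by *Eed* at 14.1 ± 1.31. *Phf1* (9.74 ± 2.07), *Suz12* (8.83 ± 1.19), *Ezh2* (6.76 ± 0.94) and *Mtf2* (5.97 ± 1.36) came next, and each overlapped its neighbour in this order. *Jarid2* (2.32 ± 0.542) and *Phf19* (1.44 ± 0.111) were lowest, without overlap between them. When all annotated exons were joined to give the length, *Rbbp4* stood above *Rbbp7* and *Mtf2* above *Ezh2*, and the other members kept their rank.

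**Figure D1:**
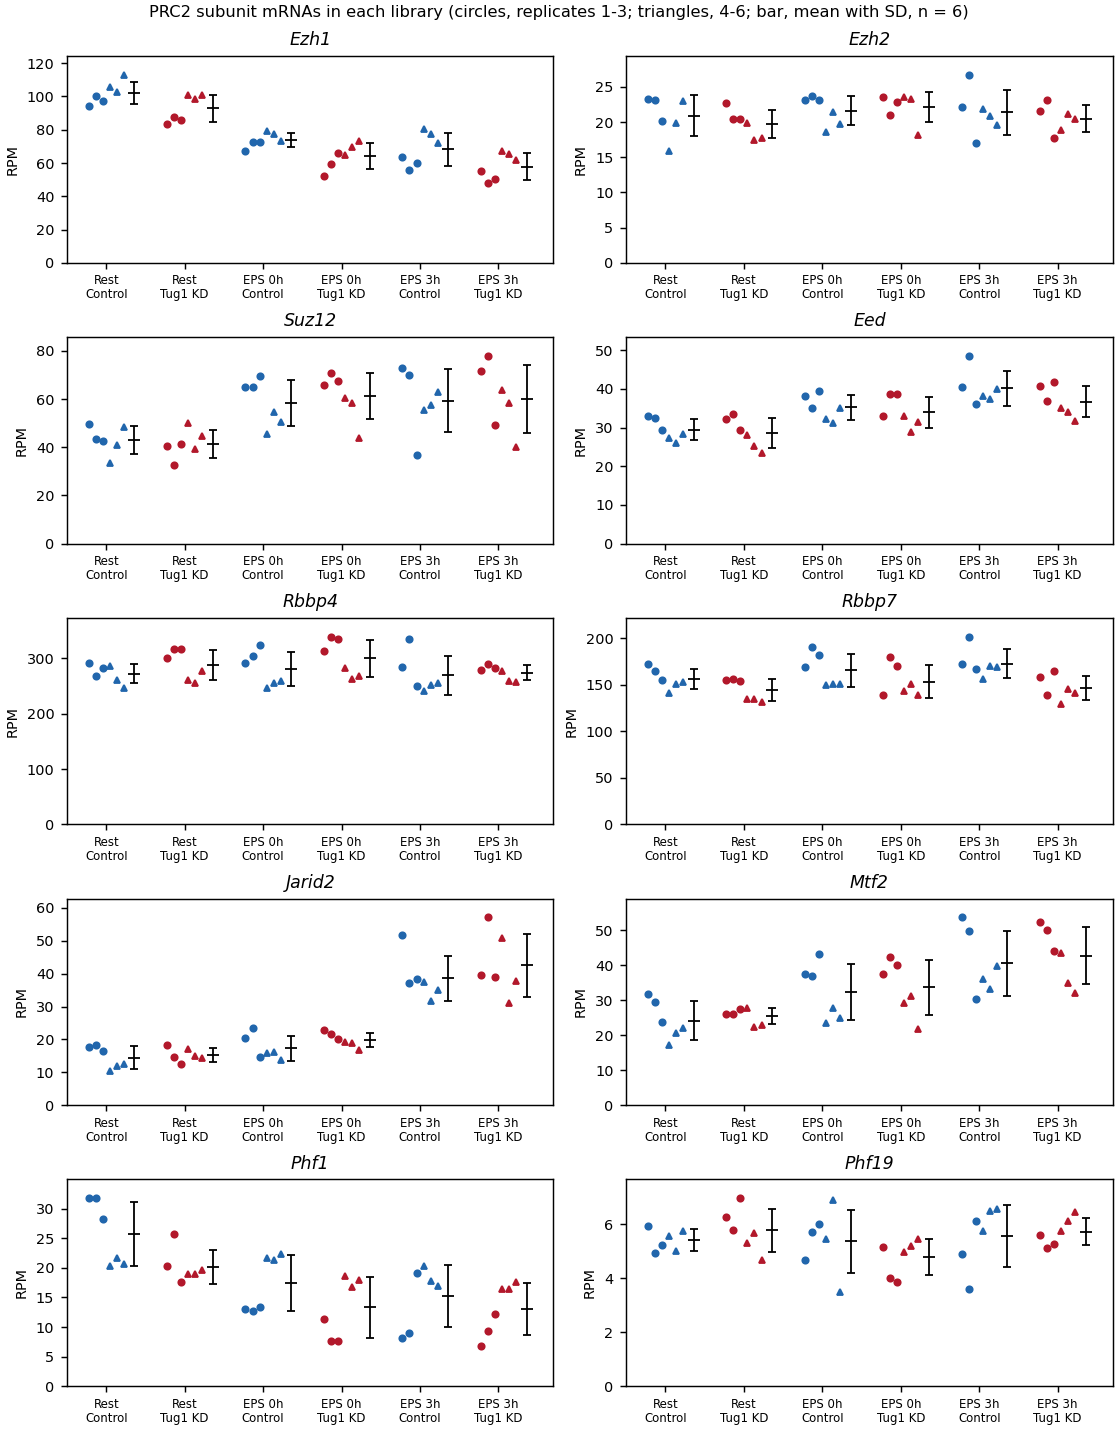
Level of each PRC2 subunit mRNA in RPM (y axis, from 0) in the 36 libraries, by group (x axis; blue, control myotubes; red, *Tug1* KD; circles, replicates 1 to 3; triangles, replicates 4 to 6; black bar, mean with SD, n = 6). *Jarid2* stands apart at EPS 3h, *Ezh1* is lower in all stimulated groups than at Rest, and *Phf1* splits by replicate number.

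After EPS the subunit mRNAs differed from Rest in both directions. In control myotubes at EPS 3h against Rest, 4 of 10 members were higher (*Jarid2*, *Mtf2*, *Suz12*, *Eed*) and 2 were lower (*Ezh1*, *Phf1*), while *Ezh2*, *Rbbp4*, *Rbbp7* and *Phf19* did not pass the test. Over all genes tested 26.1% were higher and 25.9% lower in this comparison, so neither count of members stood far from the background. At EPS 0h, 3 of 10 members were higher (*Suz12*, *Mtf2*, *Eed*; background 20.5%) and 1 was lower (*Ezh1*; background 18.4%). The median log2FC of the 10 members was 0.07 at EPS 0h and 0.10 at EPS 3h, beside medians of -0.03 and -0.02 over all genes. Both comparisons use the same Rest libraries.

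The choice of scaling bears on these counts. Without composition factors (scaling to library size alone) the median log2FC of all genes moved by -0.169 at EPS 3h, and 19.1% of genes were higher and 39.6% lower. The members at EPS 3h were then 3 higher and 2 lower, *Suz12* no longer passing, and at EPS 0h none was higher and 2 were lower (*Ezh1*, *Phf1*), with 16.6% of all genes higher and 24.9% lower. Same-numbered libraries deviated together in the control EPS comparisons, although libraries of different numbers were not compared. With replicate number as a block *Phf1* at EPS 0h (log2FC -0.64, FDR 0.014) and *Rbbp7* at EPS 3h (log2FC 0.14, FDR 0.0409) also passed the test. With the block, 49.9% of all genes were called at EPS 0h and 61.2% at EPS 3h.

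*Ezh1*, the catalytic subunit of differentiated cells, was lower after EPS. In control myotubes it was 94.3, 102 and 113 RPM (lowest, median, highest) at Rest, 67.3, 73.1 and 79.4 RPM at EPS 0h and 55.7, 67.8 and 80.3 RPM at EPS 3h. No stimulated library reached the lowest resting one. The fall was 0.721-fold at EPS 0h (log2FC -0.47, SE 0.0934, FDR 1.2e-04) and 0.665-fold at EPS 3h (log2FC -0.59, SE 0.0936, FDR 2.33e-06). *Ezh1* passed the test in 11 of 11 alternative settings at each time, and it fell in replicates 1 to 3 (-0.69 at EPS 3h) and in replicates 4 to 6 (-0.49).

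*Ezh2*, the paralog of dividing cells, showed no such change. It was 15.9, 21.6 and 23.3 RPM at Rest, 18.6, 22.3 and 23.7 RPM at EPS 0h and 17, 21.4 and 26.7 RPM at EPS 3h in control myotubes, with groups that overlapped. The log2FC was 0.05 at EPS 0h (95% confidence interval -0.16 to 0.26) and 0.03 at EPS 3h (-0.17 to 0.24), FDR 0.73 and 0.812. These intervals measure the spread between wells and do not bound the effect of EPS. The sign of both log2FC turned when libraries were scaled to library size alone (-0.03 and -0.14).

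The balance of the catalytic pair moved accordingly. The ratio of *Ezh1* to *Ezh2* RPKM was 3.65 ± 0.676 (SD, n = 6) in resting control myotubes, 2.52 ± 0.375 at EPS 0h and 2.37 ± 0.479 at EPS 3h. With *Tug1* KD the ratio was 3.48 ± 0.611 at Rest, 2.15 ± 0.43 at EPS 0h and 2.08 ± 0.368 at EPS 3h. *Ezh1* was thus the more abundant of the pair in every library, the lowest ratio being 1.51. The pair was picked with these data known, so the ratio is given without a test.

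**Figure D2:**
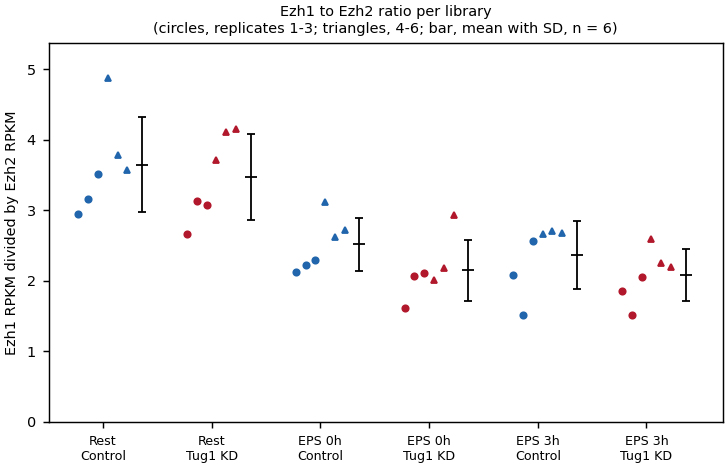
Ratio of *Ezh1* to *Ezh2* RPKM (y axis, from 0, no unit) in each library by group (x axis; symbols and bars as in the plot of member levels, n = 6). Resting libraries lie between 2.67 and 4.88, and stimulated libraries between 1.51 and 3.12.

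The core subunit genes *Suz12* and *Eed* were higher after EPS. *Suz12* was 33.6, 42.9 and 49.6 RPM at Rest, 45.3, 59.8 and 69.7 RPM at EPS 0h and 36.8, 60.2 and 73.0 RPM at EPS 3h in control myotubes. The ranges overlapped, and 1 library (replicate 3 of EPS 3h, the lowest) lay below the resting mean while the other 5 lay above it. The rise was 1.35-fold at EPS 0h (log2FC 0.44, SE 0.15, FDR 0.0191) and 1.38-fold at EPS 3h (log2FC 0.46, SE 0.15, FDR 0.00985). Replicates 4 to 6 alone gave 0.29 at EPS 0h (FDR 0.199) and 0.51 at EPS 3h.

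*Eed*, whose protein binds trimethylated lysine 27, was 26.1, 28.8 and 32.9 RPM at Rest, 31.3, 35.1 and 39.6 RPM at EPS 0h and 36, 39.2 and 48.6 RPM at EPS 3h. The EPS 3h libraries all lay above the resting ones, while those of EPS 0h overlapped both. The log2FC was 0.26 at EPS 0h (SE 0.0953, FDR 0.0283) and 0.45 at EPS 3h (SE 0.0953, FDR 1.61e-04). At EPS 0h *Eed* passed in 7 of 11 alternative settings, and at EPS 3h in 11 of 11.

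The histone-binding genes *Rbbp4* and *Rbbp7*, the most abundant members, did not pass the test in control myotubes. *Rbbp4* was 247, 274 and 292 RPM at Rest, 247, 275 and 323 RPM at EPS 0h and 240, 253 and 335 RPM at EPS 3h in control myotubes. Its log2FC was 0.04 (95% interval -0.13 to 0.22) at EPS 0h, which became -0.04 with library size scaling alone, and -0.02 (-0.19 to 0.16) at EPS 3h. *Rbbp7* was 141, 154 and 172 RPM at Rest, 150, 160 and 191 RPM at EPS 0h and 156, 169 and 202 RPM at EPS 3h. Its log2FC was 0.09 (-0.08 to 0.25) and 0.15 (-0.02 to 0.31), FDR 0.428 and 0.138, and the latter became -0.03 when libraries were scaled to library size alone.

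*Jarid2*, the accessory gene of the PRC2.2 form, gave the largest difference of any member. In control myotubes it was 10.3, 14.6 and 18.3 RPM at Rest, 13.8, 15.9 and 23.4 RPM at EPS 0h and 31.6, 37.5 and 51.7 RPM at EPS 3h. Every EPS 3h library lay above every library of the other times, and EPS 0h overlapped Rest. The rise at EPS 3h was 2.66-fold against Rest (log2FC 1.41, SE 0.152, FDR 9.89e-10) and 2.23-fold against EPS 0h (log2FC 1.16, SE 0.151, FDR 5.39e-07). At EPS 0h the log2FC was 0.26 (95% interval -0.05 to 0.56, FDR 0.184). *Jarid2* was the only member called between EPS 0h and EPS 3h, where 9.67% of all genes were higher and 6.88% lower, and it passed in 11 of 11 alternative settings. It rose in replicates 1 to 3 (1.30 against Rest) and in replicates 4 to 6 (1.59).

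*Mtf2*, a Polycomb-like accessory gene, was also higher after EPS, but was not called between EPS 0h and EPS 3h (log2FC 0.33, FDR 0.205). It was 17.3, 23.0 and 31.9 RPM at Rest, 23.6, 32.3 and 43.2 RPM at EPS 0h and 30.5, 38.0 and 53.7 RPM at EPS 3h in control myotubes. Ranges overlapped, although all 6 EPS 3h libraries were above the resting mean. The log2FC was 0.41 at EPS 0h (SE 0.169, FDR 0.049), where it passed in 5 of 11 alternative settings, and 0.74 at EPS 3h (SE 0.169, FDR 3.54e-04), where it passed in 11 of 11.

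*Phf1*, a second Polycomb-like gene, was lower at EPS 3h, and its values split by replicate number. At Rest in control myotubes it was 28.2 to 31.8 RPM in replicates 1 to 3 and 20.4 to 21.7 RPM in replicates 4 to 6. At EPS 0h the order was the opposite, 12.7 to 13.4 RPM in replicates 1 to 3 and 21.4 to 22.3 RPM in replicates 4 to 6. Over all 6 replicates the log2FC was -0.56 at EPS 0h (SE 0.24, FDR 0.0608) and -0.75 at EPS 3h (SE 0.241, FDR 0.00886). At EPS 3h it was 8.23, 8.96 and 19.1 RPM in replicates 1 to 3 and 17 to 20.4 RPM in replicates 4 to 6. Within replicates 1 to 3 the log2FC was -1.23 and -1.33, and within replicates 4 to 6 it was 0.06 (FDR 0.664) and -0.18 (FDR 0.106), so the call at EPS 3h did not hold in replicates 4 to 6. Its spread within groups, an SD of 0.461 on the log2 scale, was the widest of the 10 members. This division of the replicates follows an earlier reading of these libraries and not the labels, and its part in the result was not tested.

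*Phf19*, the third Polycomb-like gene, was the lowest member at 4.93, 5.39 and 5.95 RPM at Rest, 3.5, 5.58 and 6.90 RPM at EPS 0h and 3.6, 5.94 and 6.56 RPM at EPS 3h in control myotubes. The groups overlapped, with a log2FC of -0.01 (95% interval -0.29 to 0.28) at EPS 0h and 0.05 (-0.24 to 0.33) at EPS 3h, the latter becoming -0.12 with library size scaling alone. *Phf19* carries the same E2F letters in its window as *Suz12* and *Mtf2*, and a link of these letters to the EPS differences was not tested.

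**Figure D3:**
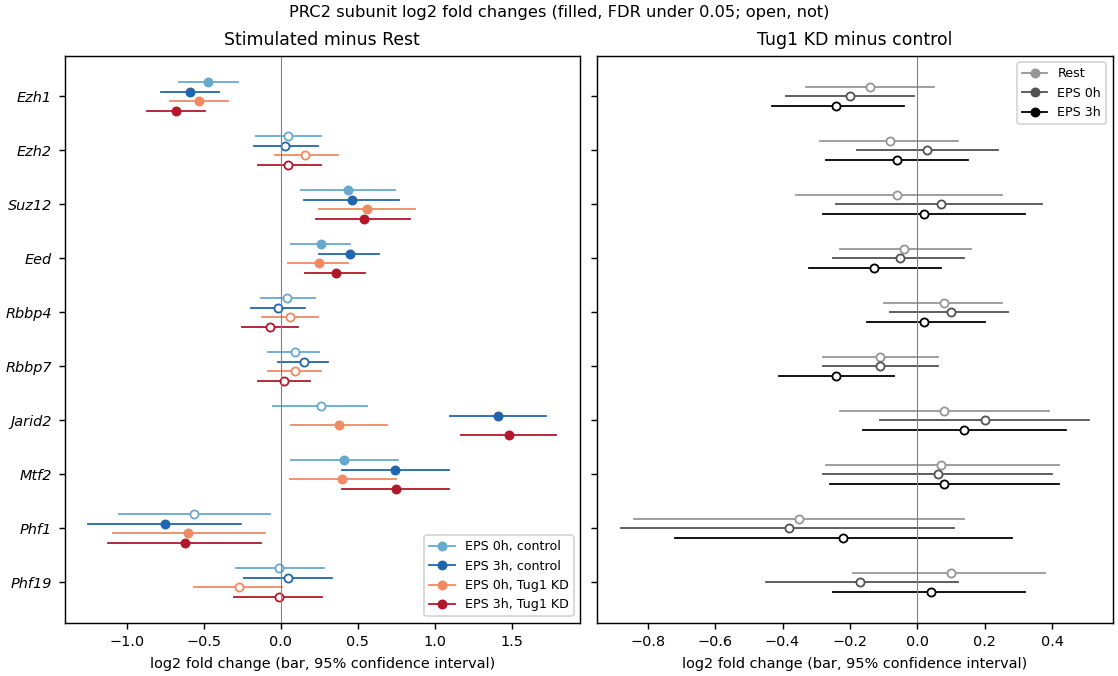
Log2 fold change of each PRC2 subunit (x axis; bar, 95% confidence interval; filled circle, FDR under 0.05; open circle, not) for stimulated against resting libraries (left) and for *Tug1* KD against control (right), 6 libraries per group. In the left panel *Jarid2* reaches 1.41 and 1.48 at EPS 3h and *Ezh1* lies below 0 throughout, whereas all circles of the right panel are open and lie between -0.38 and 0.20.

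In *Tug1* KD myotubes the EPS comparisons called 6 members at either time, and they were the same 6. The markers moved in these comparisons too. Of 11 myotube markers 1 was higher (*Ttn*, log2FC 0.87) and 2 were lower (*Myh2*, -0.69, and *Tnnt3*, -0.48) at EPS 0h, and 1 was higher (*Ttn*, 0.71) and 3 were lower (*Myh2*, -0.50, *Myh1*, -0.32, and *Myog*, -0.29) at EPS 3h, where library size scaling alone gave none higher and 5 lower. *Pax7* (0.34) and *Myf5* (1.41) were both higher at EPS 0h, and *Pax7* was lower at EPS 3h (-0.51). Their part in the member values was not tested. *Suz12*, *Eed*, *Mtf2* and *Jarid2* were higher (4 of 10; background 24.4% at EPS 0h and 26.2% at EPS 3h) and *Ezh1* and *Phf1* were lower (2 of 10; background 21.2% and 25.9%). The median log2FC of the members was 0.13 and 0.04, beside -0.03 and -0.04 over all genes. With library size scaling alone the counts became 1 higher and 3 lower at EPS 0h, *Phf19* then being called lower, and 3 higher and 3 lower at EPS 3h, *Rbbp4* then being called lower and *Eed* not passing. Under that scaling 20.3% of all genes were higher and 29.8% lower at EPS 0h, and 19.9% higher and 40.8% lower at EPS 3h.

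*Ezh1* in *Tug1* KD was 83.2, 93.1 and 101 RPM at Rest, 52.0, 65.6 and 73.2 RPM at EPS 0h and 48.0, 58.3 and 67.1 RPM at EPS 3h. As in control myotubes, no stimulated library reached the resting range, and the log2FC was -0.53 (SE 0.0936, FDR 1.85e-05) and -0.68 (SE 0.0939, FDR 1.53e-07). *Jarid2* was 12.4, 14.9 and 18.3 RPM at Rest, 16.8, 19.5 and 23.0 RPM at EPS 0h and 31.2, 39.3 and 57.1 RPM at EPS 3h. All EPS 3h libraries lay above the others, with a log2FC of 1.48 against Rest (SE 0.152, FDR 3.13e-10), while the EPS 0h difference was 0.38 (SE 0.151, FDR 0.0386) and passed in 7 of 11 alternative settings.

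For the other called members, *Suz12* had a log2FC of 0.56 at EPS 0h (FDR 0.00261) and 0.54 at EPS 3h (FDR 0.00291) in *Tug1* KD, *Eed* of 0.25 (FDR 0.0333) and 0.36 (FDR 0.00185), *Mtf2* of 0.40 (FDR 0.0486) and 0.75 (FDR 3.22e-04), and *Phf1* of -0.60 (FDR 0.0424) and -0.62 (FDR 0.0302). *Suz12* rose by 0.81 at EPS 3h in replicates 1 to 3 and by 0.28 (FDR 0.182) in replicates 4 to 6. *Phf1* gave -1.15 in replicates 1 to 3 and -0.20 (FDR 0.0966) in replicates 4 to 6, the same split as in control myotubes.

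**Figure D4:**
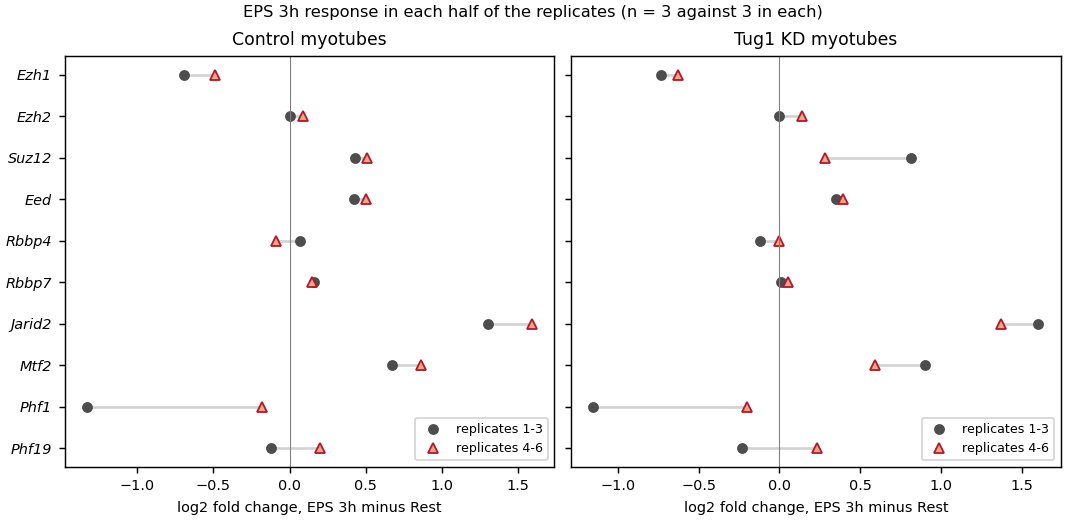
Log2 fold change of each PRC2 subunit at EPS 3h against Rest (x axis) computed from replicates 1 to 3 (circles) and from replicates 4 to 6 (triangles), 3 libraries per group in each, in control (left) and *Tug1* KD (right) myotubes. *Jarid2* lies between 1.30 and 1.60 in all 4 estimates, and *Phf1* runs from -1.33 and -1.15 in replicates 1 to 3 to -0.18 and -0.20 in replicates 4 to 6.

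Whether the EPS response differed between *Tug1* KD and control was tested with an interaction term. By edgeR none of the 10 members was called at EPS 0h, where 0% of all genes were called, nor at EPS 3h, where 0.00715% were. None had an unadjusted p under 0.05 at either time, and DESeq2 and limma-voom called none. The differences of log2FC ran from -0.26 (*Phf19*) to 0.12 (*Jarid2*, *Suz12*) at EPS 0h and from -0.13 (*Rbbp7*) to 0.13 (*Phf1*) at EPS 3h, with FDR 1 for each. For *Jarid2* at EPS 3h the difference was 0.06 with a 95% interval of -0.37 to 0.49, and for *Ezh1* it was -0.10 with an interval of -0.36 to 0.17.

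The differences of the PRC2 subunits with *Tug1* KD were small, and calls depended on the fit. By edgeR without a block 0 of 10 members were called at Rest (background 5.54% higher and 4.47% lower), at EPS 0h (8.25% higher, 6.07% lower) or at EPS 3h (6.38% higher, 5.11% lower). The unadjusted p was under 0.05 for none at Rest, for *Ezh1* at EPS 0h and for *Ezh1* and *Rbbp7* at EPS 3h. Limma-voom called none in any condition, and DESeq2 called *Rbbp7* lower at EPS 3h. The median log2FC of the members was -0.05 at Rest, -0.01 at EPS 0h and -0.02 at EPS 3h, beside -0.03, 0.00 and -0.01 over all genes.

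*Ezh1* was lower on average with *Tug1* KD in each condition. Its log2FC with *Tug1* KD was -0.14 at Rest (95% interval -0.33 to 0.05, FDR 0.43), -0.20 at EPS 0h (-0.39 to -0.01, FDR 0.161) and -0.24 at EPS 3h (-0.43 to -0.04, FDR 0.103). All 6 *Tug1* KD libraries lay below the control mean in each condition, with ranges that overlapped. *Rbbp7* at EPS 3h was 130, 143 and 165 RPM in *Tug1* KD and 156, 169 and 202 RPM in control myotubes, a log2FC of -0.24 (-0.41 to -0.07) that just missed the threshold (FDR 0.0545) and passed in 7 of 11 alternative settings. Same-numbered libraries deviated together in these stimulated comparisons, although libraries of different numbers were not compared. With replicate number as a block *Ezh1* passed at EPS 0h (FDR 0.0181) and EPS 3h (FDR 0.00857) and *Rbbp7* at EPS 3h (FDR 0.00511). The block also raised the share of all genes called from 14.3% to 24.3% at EPS 0h and from 11.5% to 20.6% at EPS 3h.

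For the other members the intervals measure the spread between wells and do not bound the effect of *Tug1* KD. At Rest the 95% interval of the log2FC was -0.29 to 0.12 for *Ezh2*, -0.36 to 0.25 for *Suz12*, -0.23 to 0.16 for *Eed* and -0.10 to 0.25 for *Rbbp4*. For the accessory genes it was -0.23 to 0.39 for *Jarid2*, -0.27 to 0.42 for *Mtf2*, -0.19 to 0.38 for *Phf19* and -0.84 to 0.14 for *Phf1*. *Phf1* had the largest estimates, -0.35 at Rest, -0.38 at EPS 0h and -0.22 at EPS 3h, none of which passed (FDR 0.451, 0.329 and 0.653).

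Other genes of the Polycomb system were read from lists. Of 5 further PRC2 subunit and inhibitor genes 4 were tested, and 2 of these rose in control myotubes at both times (median log2FC of the list 0.57 at EPS 0h and 0.72 at EPS 3h). They were *Lcor* and *Lcorl*, loci whose products include PRC2.1 accessory proteins. Over all genes 20.5% were higher at EPS 0h and 26.1% at EPS 3h. *Lcor* had a mean of 26.4 RPM at Rest, 62.3 at EPS 0h and 72.6 at EPS 3h (log2FC 1.24 and 1.46, FDR 5.25e-06 and 1.26e-07), and *Lcorl* 11.7, 29.4 and 27.8 RPM (log2FC 1.33 and 1.25, FDR 1.87e-05 and 2.31e-05). Neither *Aebp2*, the partner of *Jarid2* in PRC2.2 (log2FC -0.09 and 0.06), nor *Epop* (-0.14 and 0.20) passed the test. With *Tug1* KD, 0 of these 4 genes were called by edgeR, DESeq2 or limma-voom in any condition, and none had an unadjusted p under 0.05.

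Of the pair of H3K27 demethylase genes, which encode enzymes that remove the PRC2 mark, *Kdm6a* was higher with *Tug1* KD in all 3 conditions. Its mean was 33.2 RPM against 22.6 in control at Rest (log2FC 0.55, SE 0.162, FDR 0.0219), 48.5 against 28.4 at EPS 0h (0.77, SE 0.162, FDR 8.36e-04) and 52.2 against 33.1 at EPS 3h (0.66, SE 0.161, FDR 0.0052). The groups did not overlap at EPS 0h and overlapped in the other conditions. *Kdm6a* also rose at EPS 3h in control myotubes (0.55, FDR 0.00463). *Kdm6b* was called in none of these comparisons, its log2FC with *Tug1* KD being -0.33 at Rest, -0.01 at EPS 0h and 0.09 at EPS 3h. At EPS 0h in control myotubes edgeR called neither gene, although both had an unadjusted p under 0.05 (log2FC of the pair -0.36 and 0.33). There the replicate block called 1 higher and 1 lower, and library size scaling alone called 1 lower.

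PRC1, the complex that reads the PRC2 mark and ubiquitinates histone H2A, held called genes in both directions after EPS. Of 22 PRC1 genes, all tested, 6 were higher and 9 lower in control myotubes at EPS 0h, and again 6 and 9 at EPS 3h, with a list median of -0.03 and -0.23. Over all genes 20.5% were higher and 18.4% lower at EPS 0h, with 26.1% higher and 25.9% lower at EPS 3h, so the higher counts were near the background and the lower counts above it. With library size scaling alone the EPS 3h count was 5 higher and 14 lower, where 19.1% of all genes were higher and 39.6% lower. *Rybp*, a subunit of variant PRC1, rose from a mean of 30.1 RPM to 85.4 RPM at EPS 3h (log2FC 1.51, FDR 2.17e-11). The chromodomain genes *Cbx2* (log2FC -1.62, from 13.3 to 4.29 RPM, FDR 2.17e-08) and *Cbx8* (-1.14, FDR 3.06e-04) and the ring finger gene *Pcgf2* (-0.83, FDR 9.9e-07) fell, and none of these 4 changed sign in an alternative setting. In *Tug1* KD, 7 PRC1 genes were higher and 10 lower at EPS 3h (background 26.2% and 25.9%). With *Tug1* KD against control, 3 PRC1 genes were lower at Rest (background 4.47%). At EPS 0h 2 were higher and 1 lower (background 8.25% and 6.07%), and at EPS 3h 1 was lower (5.11%). With the replicate block 2 were higher and 6 lower at EPS 0h, and 4 were lower at EPS 3h, the block also raising the share of all genes called. *Pcgf6* was lower by edgeR with *Tug1* KD in all 3 conditions (log2FC -0.33, -0.40 and -0.53, FDR 0.0107, 0.00137 and 6.51e-05).

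**Figure D5:**
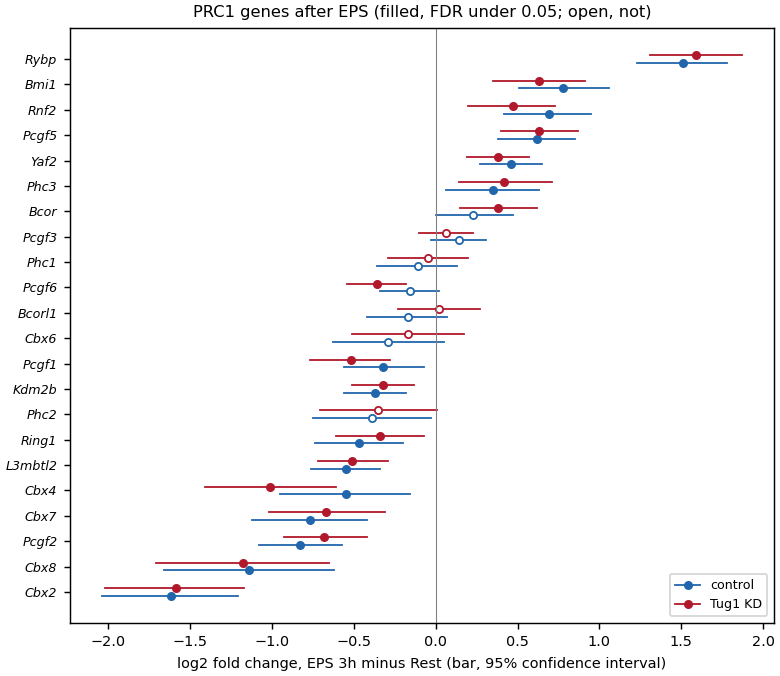
Log2 fold change of 22 PRC1 genes at EPS 3h against Rest (x axis; bar, 95% confidence interval; filled circle, FDR under 0.05; open circle, not) in control (blue) and *Tug1* KD (red) myotubes, ordered by the control value. *Rybp* is highest at 1.51 and *Cbx2* lowest at -1.62 in control myotubes.

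Of 16 genes of other complexes that contain *Rbbp4* or *Rbbp7* proteins, 3 were higher and 1 lower in control myotubes at EPS 3h (median -0.02), both below the background of 26.1% and 25.9%. *Sin3b* rose (log2FC 0.89, FDR 2.62e-12) and its paralog *Sin3a* fell (-0.75, FDR 2.17e-06), both encoding scaffolds of a deacetylase complex. The count turned to 1 higher and 7 lower with library size scaling alone, where 19.1% of all genes were higher and 39.6% lower. Of 4 genes of the H2A deubiquitinase complex, which acts against PRC1, 3 were tested and 1 rose at EPS 3h, *Asxl1* (0.41, FDR 5.34e-05). Of 39 Hox genes, classic PRC2 targets, 18 were tested, and 2 were higher and 10 lower at EPS 3h in control myotubes (median -0.33; background 26.1% higher and 25.9% lower). *Hoxc5* (-2.23, FDR 5.61e-09) and *Hoxc8* (-1.62, FDR 2.89e-05) fell, while *Hoxa5* rose (1.06, FDR 1.78e-04). Replicates 1 to 3 and replicates 4 to 6 gave -2.20 and -2.23 for *Hoxc5*, -2.37 and -0.97 for *Hoxc8*, and 0.56 and 1.48 for *Hoxa5*. Library size scaling alone gave 2 higher and 11 lower, where 19.1% of all genes were higher and 39.6% lower. With *Tug1* KD the Hox counts were 1 lower at Rest (background 4.47%), 3 lower at EPS 0h (6.07%) and 2 lower at EPS 3h (5.11%), none being higher by edgeR, DESeq2 or limma-voom. In the same comparisons *Chaf1b*, a chromatin assembly gene, was the gene of the *Rbbp4* and *Rbbp7* complexes called by edgeR (-0.59 at EPS 0h, FDR 0.00576, and -0.54 at EPS 3h, FDR 0.0157). At EPS 0h the fit with the replicate block called 2 of these 16 genes lower, and at EPS 3h DESeq2 called 1 higher and 1 lower.

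Cell cycle genes were read because *Ezh2* is tied to division. Of 15 tested, 4 were higher and 2 lower at EPS 3h in control myotubes (median 0.11; background 26.1% higher and 25.9% lower), led by *Mcm4*, a replication helicase gene (log2FC 0.74, FDR 4.22e-09), while *Rrm2* (-0.51, FDR 1.34e-04) fell. With library size scaling alone 2 were higher and 5 lower, where 19.1% of all genes were higher and 39.6% lower. With *Tug1* KD none was called at Rest by edgeR or limma-voom although 9 of 15 had an unadjusted p under 0.05, and DESeq2 called 2 lower. After EPS 0h 1 was lower by edgeR and 5 by DESeq2, and after EPS 3h 3 were lower by both. The background of lower genes by edgeR was 6.07% at EPS 0h and 5.11% at EPS 3h. At Rest the median of the summed level of the 15 genes was 542 RPM in control myotubes and 498 RPM with *Tug1* KD. Its part in the *Ezh1* and *Ezh2* values was not tested.

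The genes whose pattern was most like a member's were found by the root mean square (RMS) difference of centred log2 RPM over the 36 libraries, among 10620 named genes averaging 5 RPM or more. For *Ezh1* they were *Castor2* (RMS difference 0.117, beside an RMS spread of 0.327 for *Ezh1* itself), *Cc2d1b* (0.132) and *Acox3* (0.134). For *Jarid2* they were *Sema6a* (0.228, beside 0.667), *Pvt1* (0.245) and *Creb5* (0.255), with log2FC of 1.67, 1.5 and 1.29 at EPS 3h in control myotubes. For *Ezh2*, whose own spread was 0.163, they were *Bcas2* (0.115), *Trappc13* (0.123) and *Nrd1* (0.127). These are descriptions over libraries that share conditions and depth.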

How the data were processed

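RNA sequencing of 36 poly-A selected, stranded libraries gave 1 table of counts. Per the labels and the methods, the authors checked reads with FastQC 0.11.7, trimmed them with fastp 0.14.1 and aligned them with STAR 2.5 to GRCm39; the deposited counts are whole reads per gene and are not normalized. The strand setting of the counting is not given in the sources used here. Counts on genes without a name (0.0327%) stayed in the library totals and the fit. Such genes were left out only of the search for genes with a similar pattern.

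Groups followed the sample titles. Genes reaching 1 RPM in 12 or more of the 36 libraries (13995 of 55416) were scaled with TMM factors (0.9154 to 1.084) and tested with the quasi-likelihood test of edgeR 4.0.16 in R 4.3.3, in 1 fit over the 6 groups with no block, with Benjamini-Hochberg adjustment and an FDR threshold of 0.05. The scripts were tested on simulated data. The 10 comparisons were *Tug1* KD against control in each condition, EPS 0h and EPS 3h against Rest in each LNA, EPS 3h against EPS 0h in control, and the interactions. Alternatives were DESeq2 1.42.0, limma-voom (limma 3.58.1), other scalings, filters and thresholds, replicate number as a block, replicates 1 to 3 against 4 to 6 as a 2-level block (a division from an earlier reading of these data that the labels do not give), each of these sets alone, and the compared groups alone. RPKM by joined exon length was chosen after seeing the data.

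Same-numbered libraries deviated together, with every correlation over 0.1, in *Tug1* KD against control at EPS 0h (0.626 to 0.754) and EPS 3h (0.217 to 0.743), in the control EPS comparisons (0.228 to 0.517 and 0.127 to 0.524) and in EPS 0h of *Tug1* KD (0.165 to 0.427). The pairing comes from the data, since the labels give replicate numbers only. No 2 libraries of a group agreed within sampling noise (lowest chi-square per degree of freedom 4.316).

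The members and gene lists were chosen with earlier results of these data known. All members are named, and of each list at most 4 called genes per comparison with the largest absolute log2FC, besides the few others of short lists, and the 3 genes most like *Ezh1*, *Ezh2* and *Jarid2* in log2 RPM (pseudocount 0.1). RPM are counts over the TMM-scaled library total, except in the filters on low counts, which used the unscaled total. Sequences and positions are from GRCm39 with the GENCODE annotation.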

Additional observations from a re-analysis of the deposited data

Results flagged for a closer look

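Among 66 sets of 6 libraries (each member and *Tug1* in each group), 4 held a library whose gap to its nearest neighbour was large for the range of its group by Dixon's criterion, which chance alone gives in about 1 of 20 sets. At EPS 3h in control myotubes, replicate 2 was high for *Eed* (48.6 RPM, the next library being at 40.6) and for *Rbbp7* (202 RPM, next 173), and replicate 1 was high for *Jarid2* (51.7 RPM, next 38.5). At Rest in *Tug1* KD, replicate 2 was high for *Phf1* (25.8 RPM, next 20.3).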

How the results depend on the processing

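Of 23 member differences past the threshold, DESeq2, the 5 RPM filter and both blocks kept 23, limma-voom and the compared groups alone 21, replicates 1 to 3 alone 20, upper quartile scaling 18, no filter 16, library size scaling alone 15, an FDR of 0.01 15 and replicates 4 to 6 alone 14, and none changed sign. Members called with *Tug1* KD at EPS 0h went from 0 to 1 under the replicate block, under a block of replicates 1 to 3 against 4 to 6, and in replicates 4 to 6 alone. At EPS 3h they went from 0 to 1 under DESeq2, library size and upper quartile scaling, the 5 RPM filter and replicates 4 to 6 alone, and to 2 under either block. In control myotubes the 4 members called at EPS 0h became 2 under library size scaling or no filter and 1 at an FDR of 0.01, and the 1 called between EPS 0h and EPS 3h became 3 under either block and 2 in replicates 4 to 6 alone. In *Tug1* KD the 6 called at EPS 0h became 3 under upper quartile scaling and 2 with no filter, in replicates 4 to 6 alone or at an FDR of 0.01. *Tug1* itself missed the threshold in replicates 1 to 3 alone (-0.49 at EPS 0h, FDR 0.266, and -0.50 at EPS 3h, FDR 0.227), at an FDR of 0.01 (-0.57 and -0.51) and, at EPS 3h, in the compared groups alone (-0.52, FDR 0.133). The causes were not tested.

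Where same-numbered libraries did not all deviate together, the replicate block added *Eed* (0.19, FDR 0.0433) and *Mtf2* (0.34, FDR 0.0262) to the control calls between both EPS times, with 25.2% of all genes called against 16.6% without it. In *Tug1* KD against control at Rest the block called 17.2% of genes against 10% and no member. Apart from those given beside the results, the replicate block changed no other member's call.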
